A study of Rattus norvegicus with 24 samples.

Results

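A group of 10 genes of the cytosolic heat shock response was followed in the rat frontal cortex (FC): Hsf1, Hspa1b, Hspa8, Hspa4, Hspb1, Hsph1, Hsp90aa1, Hsp90ab1, Dnajb1 and Dnaja1. They were chosen by name among the reference genes of the deposited tables, and each of the 10 names had 1 gene identifier, out of 32883 reference genes in all. RNA was sequenced from the FC of 24 adult male Sprague-Dawley rats, collected 24 h after inhalation of an aerosol of tungsten particles. There were 8 Control rats at 0 mg/m3, 8 Low rats at 5 mg/m3 and 8 High rats at 80 mg/m3, and the labels give an inhalation exposure to tungsten for all of them, Control included. Each rat gave 1 library, named here by its group and rat number (Control 49 to 56, Low 57 to 64, High 65 to 72).

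Heat shock proteins are molecular chaperones that keep other proteins folded. HSF1 is the transcription factor that binds heat shock elements upstream of their genes when unfolded proteins accumulate. HSP70 proteins (Hspa genes) bind exposed stretches of client proteins in a cycle started by J-domain proteins (Dnaj genes) and reset by HSP110 proteins such as Hsph1 and Hspa4. HSP90 proteins complete the folding of kinases and steroid receptors, and small heat shock proteins such as Hspb1 hold unfolded proteins without using ATP. Neurons are known for high constitutive levels of Hspa8 and of HSP90.

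The upstream sequences of 4 genes are shown because a heat shock element is the site HSF1 reads, and because they include both genes that later passed a test. RefSeq (build GRCr8) gave the 250 bases before the gene start for 7 of the 10 genes, all except Hsf1, Hspa1b and Hsp90aa1. They were searched for adjoining pairs of the element's 5-base unit, GAANNTTC and TTCNNGAA, and for runs of 3 units, GAANNTTCNNGAA and its reverse complement TTCNNGAANNTTC. Each pair pattern reads the same on both strands, the pair and run patterns overlap each other by construction, and capitals mark every match. The regions are chr8:50080264-50080513 for Hspa8 and chr9:22930173-22930422 for Hsp90ab1, both on the plus strand. Those of the other two are chr12:10427118-10427367 on the plus strand for Hsph1 and chr19:41431142-41431391 on the minus strand for Dnajb1.
Hspa8: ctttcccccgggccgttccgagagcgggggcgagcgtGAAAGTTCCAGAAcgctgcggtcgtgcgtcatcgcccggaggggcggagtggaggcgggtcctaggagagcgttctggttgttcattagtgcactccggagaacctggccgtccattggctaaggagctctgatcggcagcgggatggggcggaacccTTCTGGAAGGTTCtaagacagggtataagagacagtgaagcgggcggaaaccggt
Hsph1: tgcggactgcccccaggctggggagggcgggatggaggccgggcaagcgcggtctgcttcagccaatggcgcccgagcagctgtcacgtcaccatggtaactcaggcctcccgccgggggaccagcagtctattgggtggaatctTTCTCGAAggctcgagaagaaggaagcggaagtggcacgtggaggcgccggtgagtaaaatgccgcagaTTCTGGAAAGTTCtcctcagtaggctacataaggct
Dnajb1: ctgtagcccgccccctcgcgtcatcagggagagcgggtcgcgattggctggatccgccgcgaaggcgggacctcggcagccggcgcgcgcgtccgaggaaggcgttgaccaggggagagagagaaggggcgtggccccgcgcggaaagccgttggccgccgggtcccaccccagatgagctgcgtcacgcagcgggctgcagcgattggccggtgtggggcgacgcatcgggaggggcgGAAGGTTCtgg
Hsp90ab1: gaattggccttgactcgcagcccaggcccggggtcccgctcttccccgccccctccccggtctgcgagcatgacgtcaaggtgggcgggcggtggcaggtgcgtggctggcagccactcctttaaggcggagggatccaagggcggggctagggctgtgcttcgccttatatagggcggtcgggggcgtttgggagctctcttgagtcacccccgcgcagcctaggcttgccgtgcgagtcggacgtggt

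A run of 3 units was found in 2 of the 7 upstream sequences, against 0.663% of all 33469. Hspa8 held such a run beginning 213 bases and another beginning 55 bases before the start, and Hsph1 held 1 beginning 36 bases before it. At least a pair of units was found in 5 of the 7, against 13.5% of all. Dnajb1 had a pair 11 bases before the start, Hspb1 had pairs at 129 and 109 bases, and Dnaja1 had a pair at 181 bases. Hspa4 and Hsp90ab1 had no match to these letters in this window. In the wider list of chaperone genes described later, 14 of 56 upstream sequences held a pair and 2 held a run of 3 units, those of the mitochondrial partners Hspd1 and Hspe1.

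The libraries differed in ways that bear on these genes. The summed coverage of reference genes, in units of 1000000, was 1.67 to 2.82 for Control rats, 1.64 to 3.07 for Low rats and 1.77 to 2.67 for High rats, and mitochondrial genes took 21.8% to 33.8% of it, the most in Low rat 61. The ratio of coverage to FPKM, in gigabases, had a median of 3.63 in Low, 5.54 in Control and 6.52 in High. Median summed coverage was closer between groups, at 1.81 in Low, 1.95 in Control and 2.28 in High. The ratio is therefore not read as sequencing depth, and whether Low was sequenced less was not tested. The tables of Control and High rats also list assembled loci (46334 to 159573 a table, the most in Control rat 56), while those of the Low rats list none. Libraries 56 to 62 stood apart: the 3 small nucleolar RNA entries (SNORD14) that lie inside Hspa8 summed to 0 to 3.21 there and to 9.56 to 61.4 in the other 17 libraries. These 7 libraries were grouped from the data, they include 6 of the 8 Low rats, and they are no condition of the study, so results are also given with them as a covariate. All 5 neuronal and all 3 cortical markers were detected. All 6 striatal markers were detected too, and their summed scaled coverage had its lowest and highest values at 404 and 904 for Control rats, 290 and 658 for Low rats and 205 and 1456 for High rats.

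Levels are given as scaled coverage, the mean read depth per base of a gene divided by the library's sum over reference genes and multiplied by 1000000, which allows levels of different genes to be compared per length. Fewer cells of a type and less RNA per cell cannot be told apart in such tissue samples. Together the 10 genes held a median of 0.350% of the reference coverage in Control, 0.365% in Low and 0.319% in High. Hsp90ab1 was the highest of them and ranked 58th of 15644 genes in Control, followed by Hspa8 (83rd) and Hsp90aa1 (106th), while Hspa1b ranked 12549th. The order in Control was Hsp90ab1, Hspa8, Hsp90aa1, Dnaja1, Hsph1, Hspa4, Dnajb1, Hsf1, Hspb1 and Hspa1b, and the 10 ranks were the same in Low and in High. Each gene exceeded the next in 8 of 8 Control rats, by 1.23-fold (Hspa8 over Hsp90aa1) to 3.34-fold (Hsf1 over Hspb1). The adjusted p was 0.0078125 for every neighbouring pair (exact two-sided sign-flip permutation test, 9 tests), the smallest p that 8 pairs allow. The order was taken from the same 8 rats, so these p-values are no separate support for it. The SD of log2(scaled coverage + 1) in Control lay below the median of all genes (0.23) for all members except Hspb1 (0.30), and was 0.11 for Hsf1. The added 1 lowers this spread for low genes such as Hspa1b (0.18).

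**Figure D1:**
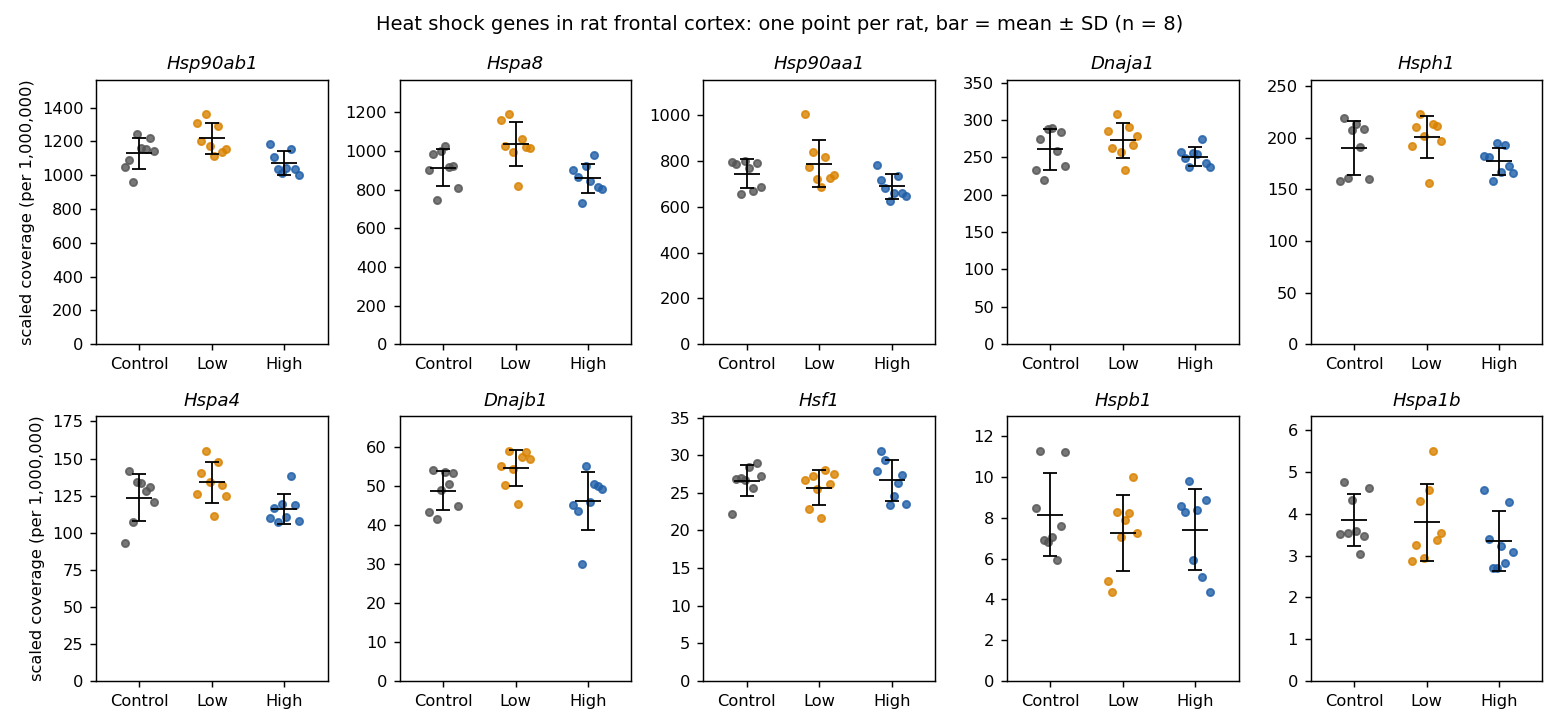
Scaled coverage (per 1,000,000, linear axes from 0) of the 10 genes in each rat of the Control, Low and High groups, ordered by level, with points for rats and bars for mean ± SD (n = 8). The 3 groups overlap for every gene, and Dnajb1 in High rat 67 lies at 30.03, below all other rats.

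Hsf1, the regulator, had no difference that passed a test. Its scaled coverage ran from 22.1 to 28.9 (median 26.9) in Control, from 21.7 to 28.0 (median 26.5) in Low and from 23.4 to 30.6 (median 26.9) in High. The log2 difference was -0.05 for Low against Control (95% interval -0.19 to 0.09) and -0.00085 for High against Control (-0.14 to 0.14). Hsf1 (ENSRNOG00000021732) lies at chr7:117538523-117565478 in the coordinates of the tables.

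Hspa8, the constitutive HSP70 also known as HSC70, had the largest estimate of the 10 genes in both comparisons that involve Low. It ran from 744 to 1026 (median 920) in Control, from 818 to 1190 (median 1022) in Low and from 732 to 979 (median 855) in High. The Low rats other than rat 61 lay above every High rat, while rat 61, at 818, lay within the High range, so the groups overlapped. Hspa8 (ENSRNOG00000034066, chr8:44990014-44993179) is the gene with a run of 3 heat shock units at both marked places in the sequence shown above.

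Hspa1b, the strongly inducible HSP70, was the lowest of the 10 genes. It ran from 3.04 to 4.76 (median 3.57) in Control, from 2.87 to 5.51 (median 3.46) in Low and from 2.70 to 4.58 (median 3.16) in High, at a median deposited depth of 6.93 to 7.31 reads per base. The log2 differences were -0.03 for Low against Control (95% interval -0.27 to 0.21) and -0.16 for High against Control (-0.41 to 0.08). Hspa1b (ENSRNOG00000050647, chr20:4877324-4879779) has a near-identical copy, Hspa1a, for which no entry was found by name, so how reads were divided between the copies is uncertain. In the Control and High tables the assembled loci overlapping Hspa1b on its strand summed to 1 to 137 times (median 2.56) the coverage of the reference entry. Hspa1b also lies within the spans of 3 RT1-CE genes on the same strand, so that sum can hold loci of those genes. The sum is therefore no measure of Hspa1b, and the low level given is that of the reference entry alone.

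Neither of the HSP110 genes separated the groups. Hspa4 (ENSRNOG00000016596, chr10:38601624-38642397) ran from 93.2 to 141 (median 130) in Control, from 111 to 155 (median 133) in Low and from 107 to 138 (median 114) in High. Hsph1 (ENSRNOG00000000902, chr12:6322668-6341902) ran from 158 to 219 (median 199) in Control, from 156 to 223 (median 206) in Low and from 158 to 195 (median 177) in High. For both genes the ranges of the 3 groups overlapped, and the Low rat at the bottom of each Low range was rat 61.

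The HSP90 genes form a pair of an inducible (Hsp90aa1) and a constitutive (Hsp90ab1) form. Hsp90ab1 (ENSRNOG00000019834, chr9:17817721-17823243) ran from 960 to 1245 (median 1149) in Control, from 1116 to 1361 (median 1189) in Low and from 1001 to 1183 (median 1041) in High. Hsp90aa1 (ENSRNOG00000059714, chr6:135107271-135112775) ran from 654 to 799 (median 779) in Control, from 686 to 1003 (median 754) in Low and from 626 to 783 (median 671) in High. The value of 1003 belonged to Low rat 57, and no other rat exceeded the top of the Control range by as much.

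Dnajb1 is the inducible J-domain partner of HSP70 and Dnaja1 a more constitutive one. Dnajb1 (ENSRNOG00000021824, chr19:24747178-24750919) ran from 41.4 to 54.2 (median 49.8) in Control, from 45.3 to 58.9 (median 56.1) in Low and from 30.03 to 55.0 (median 47.4) in High. Dnaja1 (ENSRNOG00000007029, chr5:57028467-57039378) ran from 219 to 290 (median 266) in Control, from 233 to 308 (median 272) in Low and from 237 to 275 (median 251) in High. Hspb1 (ENSRNOG00000023546, chr12:23839399-23841049), the small heat shock protein also called HSP27, was low and the most variable, from 5.92 to 11.3 (median 7.32) in Control, from 4.37 to 10.02 (median 7.58) in Low and from 4.36 to 9.82 (median 8.34) in High. Low rat 61 was the lowest of its group for 8 of the 10 genes, all except Hspa1b and Hspb1, and was also the rat with the highest mitochondrial share.

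The first comparison, Low against Control, asks whether the lower concentration was followed by a change. None of the 10 genes passed the test (limma, adjusted p under 0.05), against 6.11% of the 15644 genes tested, of which 1.23% were higher and 4.88% lower. By estimate 7 genes were higher and 3 lower, with a median log2 difference of 0.08 against 0.06 over all genes. Hspa8 was the 1 gene with an unadjusted p under 0.05, against 18.4% of all genes, with a mean of 1036 ± 113 (SD, n = 8) in Low and 913 ± 96.2 in Control, a log2 difference of 0.18 (SE 0.0761) and an adjusted p of 0.190 by limma. With the scaling sum taken without mitochondrial and overlapping genes, Hspa8 passed (0.19, adjusted p = 0.0407, limma). With the deposited FPKM values 9 of the 10 genes were called higher, as were 11948 of all 13816 genes tested in that setting, at an all-gene median of 0.53. The groups overlapped for all 10 genes, against 1.53% of all genes whose groups did not.

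High against Control asks the same of the higher concentration. None of the 10 genes passed, and neither did any of the 15644 genes (0%). No gene of the 10 had groups that did not overlap, against 0.00639% of all. At an unadjusted p under 0.05 there were 0 of the 10 genes and 330 of all (2.11%) by limma, and 887 of all by an exact Wilcoxon rank-sum test. All 10 estimates were lower in High, from -0.00085 for Hsf1 to -0.16 for Hspa1b, with a median of -0.09 against -0.03 over all genes, of which 36.0% were higher. This direction depends on the scaling: without it 9 of the 10 were higher and the median was 0.09, against 0.14 over all genes.

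In Low against High, which compares the exposed groups with each other, 2 of the 10 genes were higher in Low and none lower, against 11.7% of all genes called (5.3% higher, 6.39% lower). Hspa8 averaged 1036 ± 113 in Low and 858 ± 77.1 in High (SD, n = 8 each), a log2 difference of 0.27 (SE 0.0761, 95% interval 0.11 to 0.43, adjusted p = 0.0215 by limma). Hsp90ab1 averaged 1218 ± 90.6 in Low and 1072 ± 68.4 in High, a log2 difference of 0.18 (SE 0.0577, 95% interval 0.06 to 0.30, adjusted p = 0.0402 by limma). Both are abundant constitutive chaperones. The other estimates ran from -0.05 (Hsf1) to 0.25 (Dnajb1), 8 of the 10 were higher in Low, and the median was 0.18 against 0.09 over all genes. At an unadjusted p under 0.05 there were 6 of the 10 genes, against 29.1% of all. The groups overlapped for all 10 genes, while 2.26% of all genes had groups that did not overlap.

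**Figure D2:**
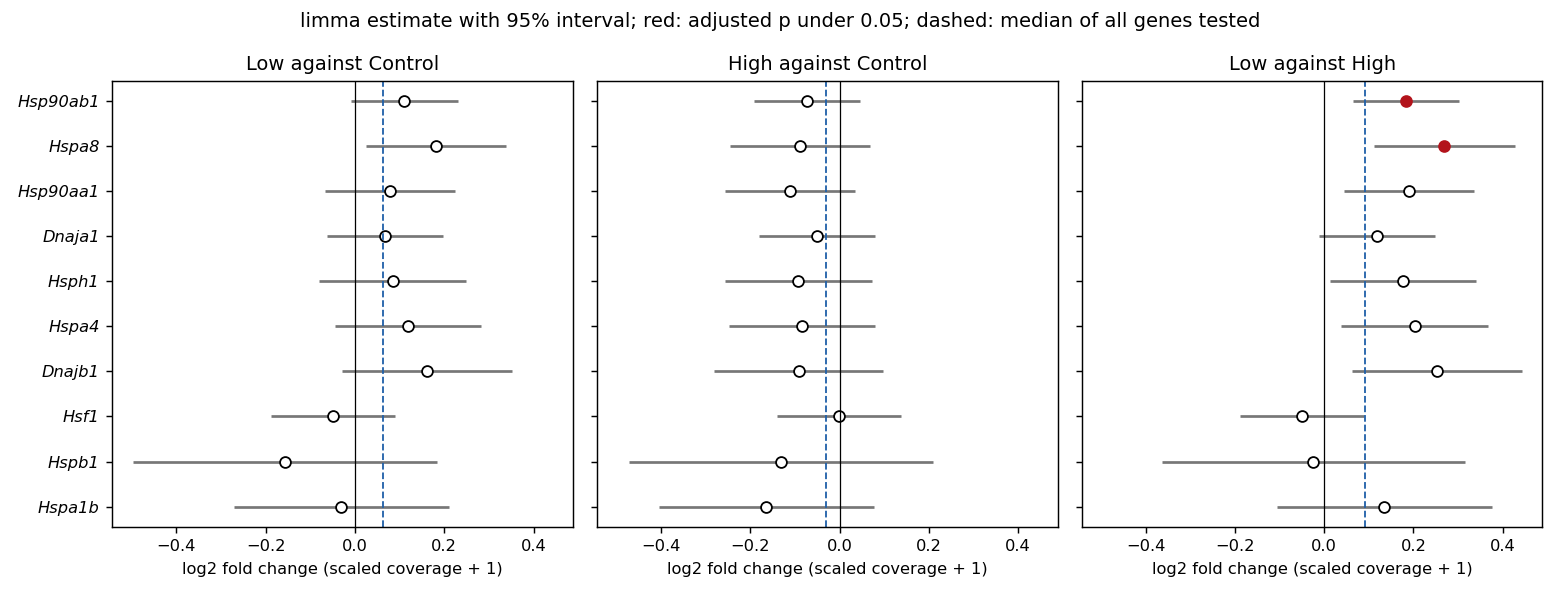
Log2 fold change of scaled coverage + 1 (points, with 95% intervals from limma) for the 10 genes in the 3 comparisons, with red points for an adjusted p under 0.05 and a dashed line at the median of all 15644 genes. The 2 red points are Hspa8 (0.27) and Hsp90ab1 (0.18) in Low against High, and all 10 points of High against Control lie at or below 0.

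The calls of Hspa8 and Hsp90ab1 depended on scaling and on single rats. Neither passed with libraries 56 to 62 as a covariate (Hspa8 0.31, adjusted p = 0.193; Hsp90ab1 0.12, adjusted p = 0.5; limma) or under median-of-ratios scaling (0.17 and 0.09), a scaling that brings the median of all genes to 0.0029. The covariate left 354 of all 15644 genes called, against 1828 without it. Without scaling the difference was 0.05 for Hspa8 and -0.04 for Hsp90ab1, against -0.12 over all genes. Measured from the all-gene median, Hspa8 lay at 0.16 to 0.25 and Hsp90ab1 at 0.06 to 0.20 over the 13 settings of the plot by setting. This measure takes out most of what a scaling changes. The exact Wilcoxon setting and the fit of only the groups compared repeat the main estimate, so the settings are not independent. Without Low rat 59 or without High rat 67 no member passed, while 1282 and 1390 of all 15644 genes did. Hsp90ab1 also failed without Low rat 57, 58, 60 or 62 and without High rat 68, 69, 71 or 72. Leaving out 1 rat gave adjusted p of 0.00472 to 0.055 for Hspa8 and 0.0238 to 0.0947 for Hsp90ab1 (limma). By the exact Wilcoxon test Hspa8 passed (adjusted p = 0.0407) and Hsp90ab1 did not (0.0624). Without Low rat 61 there were 6 members (2479 of all 15644 genes): Hspa8, Hspa4, Hsph1, Hsp90aa1, Hsp90ab1 and Dnajb1.

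**Figure D3:**
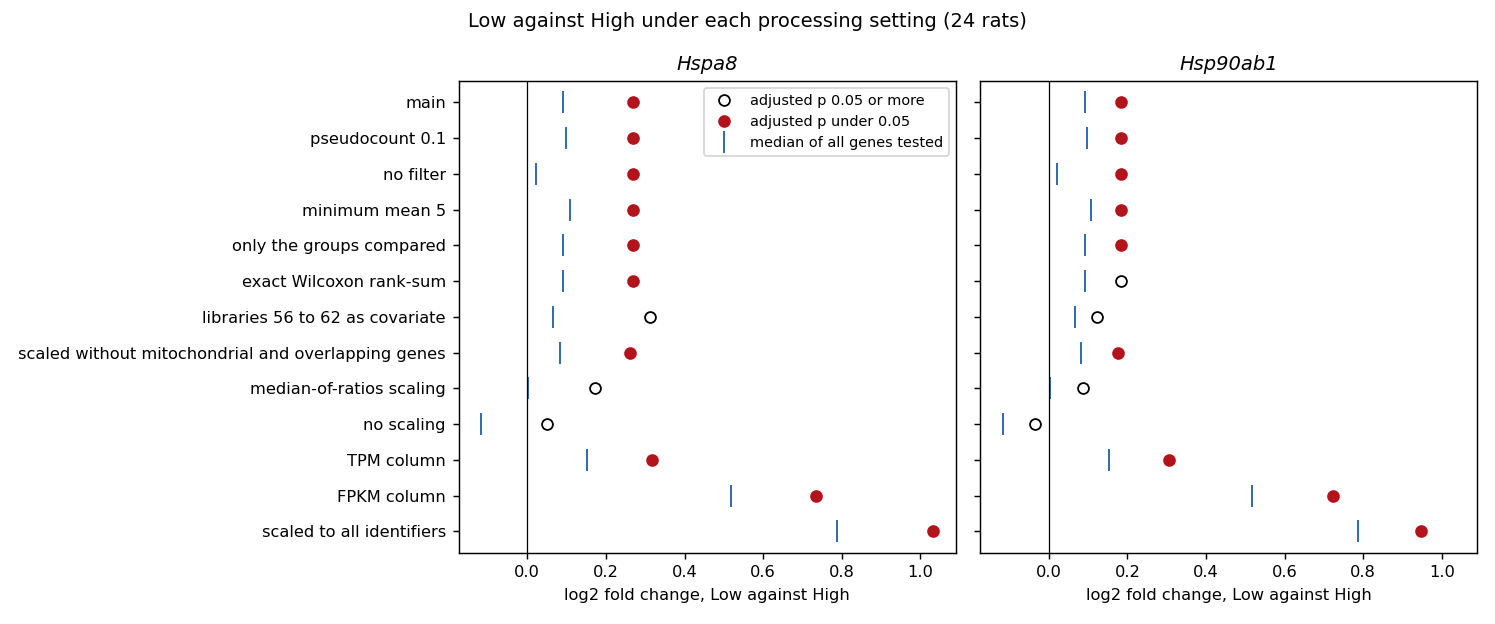
Log2 fold change of Hspa8 and Hsp90ab1 in Low against High under each processing setting (rows; limma except the row of the rank-sum test), filled red where the adjusted p was under 0.05, with the median of all genes tested as a blue tick. Both genes lie above the tick in every row, and the whole scale moves with the setting, from an all-gene median of -0.12 without scaling to 0.79 with assembled loci in the scaling sum.

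Other marker lists also had higher or lower estimates in Low against High. Their relation to the heat shock genes rat by rat was not tested. Immediate early genes, which neurons switch on within minutes of activity, were higher in Low for all 8 markers, with a median log2 difference of 1.10. Of these markers 7 of 8 passed, against 11.7% of all genes called. Their summed scaled coverage had a median of 442 in Control (range 341 to 685), of 781 in Low (426 to 1027) and of 311 in High (146 to 626). None of these 8 markers was at 0. Neuronal markers gave a median difference of 0.17 in the same comparison, with 4 of 5 higher. Of 5 endothelial markers named, 4 were found and 3 tested. These 3 were higher, with a median of 0.17 and values from 0.0089 (Esam) to 0.25 (Flt1). Both medians are near that of the heat shock genes, and none of these markers was called. Astrocyte markers gave 0.09 (3 of 5 higher) and microglial markers 0.06 (4 of 5 higher), none of them called. Over all genes 69.9% had higher estimates. Oligodendrocyte markers were higher by estimate for 6 of 6 (median 0.23) and cortical markers for 3 of 3 (median 0.35), none of them called. Mural cell markers were lower for 4 of 5 (median -0.36), and Pdgfrb of that list passed (-0.64, adjusted p = 0.00136 by limma). All tested markers of striatum (6, median -0.21), choroid plexus and meninges (4, -0.22) and blood (3, -0.19) had lower estimates, none of them called. The part of these transcripts and of the mitochondrial share in the result was not tested.

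A ratio of an inducible gene to its constitutive partner within a rat does not depend on scaling. Hspa1b stood at 0.331% to 0.571% (median 0.412%) of Hspa8 in Control, at 0.248% to 0.559% (median 0.339%) in Low and at 0.288% to 0.529% (median 0.384%) in High. Hsp90aa1 stood at 57.7% to 76.0% (median 65.4%) of Hsp90ab1 in Control, at 61.5% to 76.7% (median 63.5%) in Low and at 62.0% to 66.2% (median 64.0%) in High. Dnajb1 stood at 17.0% to 19.8% (median 18.8%) of Dnaja1 in Control, at 19.2% to 21.96% (median 19.6%) in Low and at 12.7% to 21.5% (median 18.2%) in High. None of the 9 differences passed after adjustment (exact two-sided permutation test). The smallest p was that of Dnajb1 to Dnaja1 in Low against Control, a log2 difference of 0.10 (p = 0.00917, adjusted p = 0.0825, exact permutation test), and without Control rat 50 it passed (0.11, adjusted p = 0.0350).

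**Figure D4:**
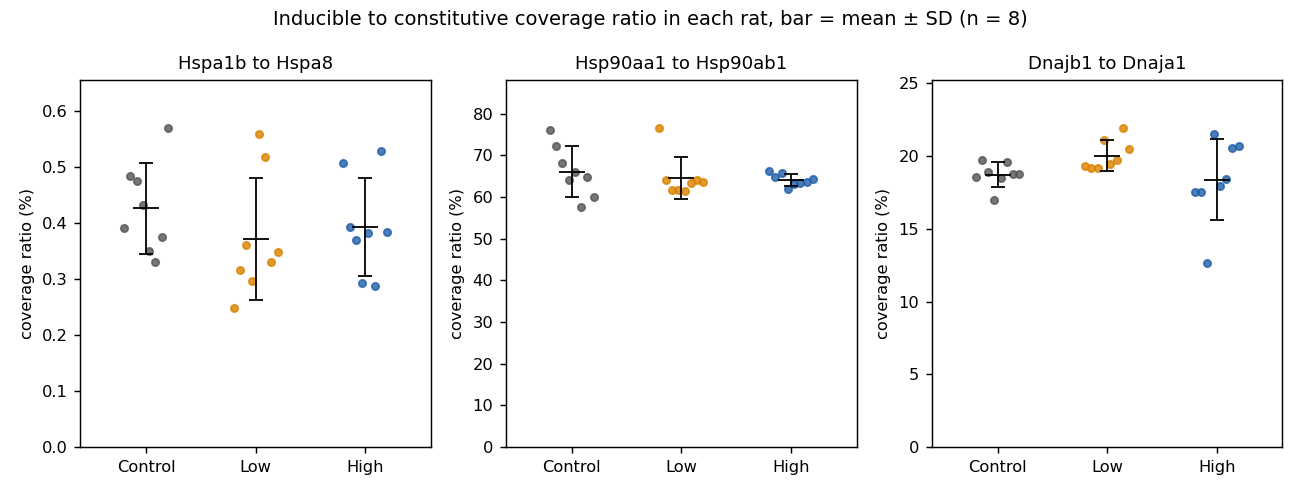
Coverage ratio in percent (linear axes from 0) of Hspa1b to Hspa8, Hsp90aa1 to Hsp90ab1 and Dnajb1 to Dnaja1 in each rat, with bars for mean ± SD (n = 8). Low rat 57 stands at 76.7% for the HSP90 pair and High rat 67 at 12.7% for the J-domain pair.

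Around these genes, a wider list of 65 chaperones and co-chaperones was read, of which 64 were found by name and 60 were tested. In Control the HSP90 co-chaperones Ptges3 (180), Stip1 (151), Ahsa1 (146), Cdc37 (98.8), Fkbp4 (97.8) and Chordc1 (34.5) lay below the HSP90 genes themselves in scaled coverage. Hsbp1, a small binding partner of HSF1, stood at 349 and the related factor Hsf2 at 20.8. Among other HSP70 relatives Hspa12a stood at 94.7, Hspa4l at 51.3, Hspa14 at 18.8 and Hspa2 at 16.8. The co-chaperones Stub1, Bag1 and Bag3 stood at 159, 44.2 and 8.29, the J-domain genes Dnajc7 and Dnajb6 at 117 and 79.9, the small heat shock genes Cryab and Hspb8 at 48.0 and 19.6, and the mitochondrial chaperonin Hspd1 at 159.

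Of the 60 tested genes of the wider list, 1 passed in Low against Control (6.11% of all genes did), 0 in High against Control (0% of all) and 2 in Low against High (11.7% of all). The list medians of the log2 difference were 0.10, -0.02 and 0.13, beside 0.06, -0.03 and 0.09 over all genes. At an unadjusted p under 0.05 there were 13, 1 and 22 of the 60, beside 18.4%, 2.11% and 29.1% of all genes. Hspe1, the mitochondrial co-chaperonin and partner of Hspd1, went the other way from most of the list. It ran from 137 to 215 (median 187) in Control, from 118 to 180 (median 133) in Low and from 156 to 234 (median 187) in High, so the median Low rat lay below every Control and High rat. Hspe1 fell by 0.39 in Low against Control (SE 0.0958, adjusted p = 0.0131 by limma) and was lower by a log2 difference of -0.49 in Low against High (adjusted p = 0.00124 by limma). With libraries 56 to 62 as a covariate the differences of Hspe1 were -0.32 and -0.40, and neither passed (adjusted p = 0.328 and 0.160 by limma). Of all 15644 genes 361 and 354 were called in that setting, against 956 and 1828 without the covariate. The sign of Hspe1 turned with FPKM (0.12 for Low against Control) and with assembled loci in the scaling sum (0.42 and 0.27), settings that raise all genes together. In Low against Control Hspe1 passed in 8 of the 13 settings, counting that with assembled loci, where its sign was turned. It did not pass by the exact Wilcoxon test (adjusted p = 0.064), nor by limma without scaling (0.144), with TPM (0.0705) or with FPKM (0.296). Measured from the all-gene median, which takes out most of what a scaling changes, Hspe1 lay at -0.47 to -0.36 in Low against Control over the 13 settings. In Low against High it lay at -0.60 to -0.47. Dnajb5, a J-domain gene, ran from 61.2 to 97.5 (median 77.8) in Control, from 76.9 to 102 (median 93.3) in Low and from 54.6 to 92.6 (median 72.8) in High, and was higher in Low against High (0.31, SE 0.101, adjusted p = 0.0497 by limma). That call of Dnajb5 held in 7 of the 13 settings, and was lost, for example, with no filter (adjusted p = 0.0649), by the exact Wilcoxon test (0.0716) and with libraries 56 to 62 as a covariate (0.38, adjusted p = 0.235). All 8 subunits of the cytosolic chaperonin TRiC and all 10 J-domain genes had estimates above 0 in Low against Control, with medians of 0.13 and 0.11, and none of them passed. In that comparison 66.5% of all genes had estimates above 0 and the median of all was 0.06.

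**Figure D5:**
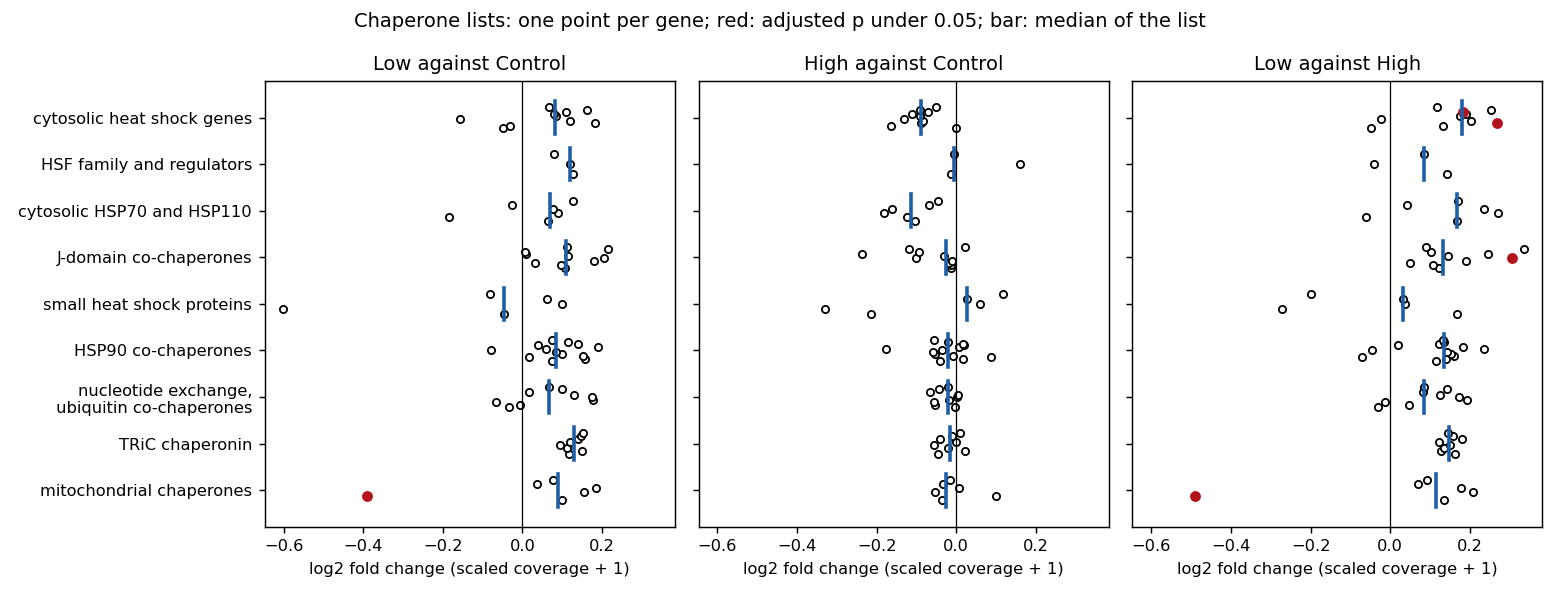
Log2 fold change of scaled coverage + 1 for every tested gene of the 10 heat shock genes and 8 wider chaperone lists (rows) in the 3 comparisons, with red points for an adjusted p under 0.05 (limma) and blue bars at list medians. The red point far to the left in Low against Control and Low against High is Hspe1 (-0.39 and -0.49), and no point is red in High against Control.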

How the data were processed

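Poly-A RNA of the FC of 24 rats was sequenced as stranded libraries. Per the labels, the authors used FastQC, Trimmomatic, TopHat2 and StringTie on build mRatBN7.2; no versions are named. Genes on chromosome 1 of the tables reach base 282724300, so whether the tables' coordinates are of that build is unsure, and they are printed as deposited. The deposited signal is StringTie coverage, the mean read depth per base of each gene, which holds no read counts, so counting error is unknown. The deposited FPKM values are per length and depth, and the deposited TPM column, treated as a signal, sums to 1000000 over the whole table in Low rats only.

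Coverage was summed per reference gene and scaled to 1000000 per library. Differences were tested on log2(scaled coverage + 1) with limma 3.58.1 (R 4.3.3, trend, robust, two-sided, all 24 rats, no covariate) over 15644 genes with a mean of at least 1, with Benjamini-Hochberg adjustment at 0.05. Fold changes on this scale understate the change of low genes. Ratios and neighbouring levels were tested with exact permutation tests (Python 3.11.15). The limma fit (for Low against Control) and the exact permutation tests were tried on simulated data. Alternatives were another pseudocount, filter, scaling, deposited column, test, a covariate for libraries 56 to 62, and leaving out each rat. The 10 genes, the wider list, the markers and the named genes (the 10, 22 of the wider list, those of it past the threshold, and the 5 genes most alike in pattern) were chosen with earlier results of these data known. Upstream sequences are RefSeq's (GRCr8), where Hsph1 and Dnajb1 lie on the other strand than in the tables.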

Additional observations from a re-analysis of the deposited data

Results flagged for a closer look

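Among 39 sets of 8 rats (10 genes and 3 ratios in 3 groups), 6 had a rat far from the other 7. Chance gives about 1.95 for independent sets. These sets share rats, scaling and genes, so no excess over chance is read from the count. Scaled coverage of Hspa4 was 138 in High rat 70, against 107 to 120 in the other High rats. Hsph1 was 157 in Low rat 61, against 192 to 223 in the other Low rats. Dnajb1 was 30 in High rat 67, against 43.6 to 55.0 in the others. Its ratio to Dnaja1 was 12.7% in that rat, against 17.5% to 21.5%, and 17.0% in Control rat 52, against 18.5% to 19.8%. The ratio of Hsp90aa1 to Hsp90ab1 was 76.7% in Low rat 57, against 61.5% to 64.1% in the other Low rats.

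Low and High rats differed, by the direct limma test between them, for Hspa8 (log2 difference 0.269, adjusted p = 0.0215), Hsp90ab1 (0.183, adjusted p = 0.0402), Dnajb5 (0.305, adjusted p = 0.0497) and Hspe1 (-0.49, adjusted p = 0.00124). With libraries 56 to 62, which hold 6 of the 8 Low rats, as a covariate none of these passed (adjusted p = 0.193, 0.5, 0.235 and 0.160, limma). Their log2 differences were then 0.31, 0.12, 0.38 and -0.40. In that setting 354 of all 15644 genes were called, against 1828 without the covariate. Of the 4 genes Hspe1 alone passed against Control, in Low. This call was lost by the exact Wilcoxon test (adjusted p = 0.064) and with the covariate (adjusted p = 0.328, limma).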

How the results depend on the processing

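The count of heat shock genes called was 0 in High against Control under every setting, and so was the count over all genes. In Low against Control the count of heat shock genes was 0, also without each rat. It was 1 with the scaling sum free of mitochondrial and overlapping genes (1451 of all 16473 genes tested) and 2 with TPM (3952 of 15587). With FPKM it was 9 (12393 of 13816) and with assembled loci in the sum 10 (13987 of 14927). In Low against High it was 2 (1828 of all 15644). It was 0 without scaling (1370 of 17154), under median-of-ratios scaling (1656 of 15632) and with libraries 56 to 62 as covariate (354 of 15644). The exact Wilcoxon test gave 1 (1147 of 15644). It was 3 with TPM (3927 of 15587) or without mitochondrial and overlapping genes (2494 of 16473). With FPKM (12410 of 13816) or assembled loci (14002 of 14927) it was 10. Leaving out 1 rat gave from 0 (as without Low rat 59, 1282 of 15644) to 6 (without Low rat 61, 2479 of 15644). Loci are listed for Control and High only, which shifts the median of all genes in Low against Control to 0.81 (0.53 with FPKM).

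Signs that turned were those of genes that did not pass, with the exception of Hsp90ab1 and Hspe1. Most did so where a setting moves all genes together. Measured from the all-gene median, Hsp90ab1 stayed above (0.06 to 0.20) and Hspe1 below (-0.60 to -0.47) in Low against High under all 13 settings. That measure takes out most of what a scaling changes, and some settings repeat the main estimate. Without scaling, High against Control became 0.18 for Hsf1, 0.10 for Hspa8, 0.10 for Hspa4, 0.0317 for Hspb1, 0.091 for Hsph1, 0.0729 for Hsp90aa1, 0.11 for Hsp90ab1, 0.0898 for Dnajb1, 0.13 for Dnaja1 and 0.0812 for Dnajb5, and Low against High became -0.0413 for Hspa1b, -0.0147 for Hspa4, -0.0412 for Hsph1, -0.0291 for Hsp90aa1, -0.0355 for Hsp90ab1 and -0.10 for Dnaja1. With assembled loci in the sum, Low against Control became 0.73 for Hsf1, 0.58 for Hspa1b, 0.55 for Hspb1 and 0.42 for Hspe1, Low against High 0.68 for Hsf1, 0.62 for Hspb1 and 0.27 for Hspe1, and High against Control 0.0518 for Hsf1 and 0.0061 for Dnaja1. With FPKM, Low against Control became 0.42 for Hsf1, 0.29 for Hspa1b, 0.25 for Hspb1 and 0.12 for Hspe1, Low against High 0.38 for Hsf1 and 0.32 for Hspb1, and High against Control 0.0439 for Hsf1. With TPM, Low against Control became 0.0437 for Hsf1 and 0.0461 for Hspa1b, Low against High 0.0174 for Hspb1, and High against Control 0.046 for Hsf1, which was 0.035 under median-of-ratios scaling and 0.0192 without mitochondrial and overlapping genes.

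The log2 ratio of Hsp90aa1 to Hsp90ab1 in Low against High was 0.0064, and -0.0676 with FPKM and -0.0102 with medians. Leaving out 1 rat gave -0.0294 to 0.0161 for it, -0.0783 to 0.0309 for Dnajb1 to Dnaja1 in High against Control and 0.0769 to 0.108 for the same pair in Low against Control. It also turned the sign of Hspa1b in Low against Control (-0.0965 to 0.0106), of Hsf1 in High against Control (-0.0367 to 0.0243) and of Hspb1 in Low against High (-0.111 to 0.0596). No paired analysis was possible because the groups share no rat numbers.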

Other observations

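In all 16 Control and High tables each of the 10 genes was overlapped by at least 1 assembled locus on the same strand, and in none of the 8 Low tables. For Hspb1 a locus had the same ends and the same coverage (within 0.1%) in 16 of 16 tables, and for Hspa4 a locus had the same coverage in 13 of 16. The median ratio of all overlapping loci, summed, to the reference gene in coverage was lowest for Dnaja1 (0.588) and highest for Hspa1b (2.56, up to 137). A locus had the same ends as Hspa1b in 8 of 16 tables.

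The genes whose pattern over the 24 rats, centred on group means and in SD units, lay closest to the mean of the 10 genes were Usp14 (root mean square difference 0.386), Plekhb2 (0.447), Porcn (0.451), Cct6a (0.454) and Tspyl1 (0.458), where the median of 13150 genes was 1.12. Among the 10 genes Dnaja1 lay closest to the mean of the others (0.462), and Hspb1 (1.38) and Hspa1b (1.23) farthest. Closest to Hspa1b were Srpk3 (0.681), Slc9a3r1 (0.739), Neurod1 (0.742), Nr4a2 (0.778) and Jhy (0.793), where the median was 1.30. All values in a library share its depth and scaling.

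Mir207, which lies inside Dnaja1, stood at 0 to 1.06 in libraries 56 to 62 and at 2.43 to 12.48 in the other 17.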
